A study of Mus musculus with 3 samples.

Results

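The cytosolic ribosomal protein genes were taken as every gene whose symbol is Rps or Rpl followed by a number, with or without 1 of the letters a, x, y or l, together with Rplp0, Rplp1, Rplp2 and Rpsa. The rule found 81 of the 27998 genes listed, of which 31 encode small-subunit proteins, 47 carry Rpl symbols of the large subunit and 3 form the stalk of the large subunit. Of the 81 genes, 80 were annotated as protein coding and 1, Rpl6l, as a processed pseudogene (GENCODE annotation on GRCm38). No unique molecular identifier (UMI, the mark of 1 captured transcript) of Rpl10l was found in any library, so 80 members were detected. Single-cell RNA-Seq (10x 3′ chemistry) was performed on 3 tissues (marrow, blood and the injured tendon region) of mice aged 10 weeks, 3 days after a dorsal burn with transection of the Achilles tendon (burn/tenotomy). The study's methods give the mice as male C57BL/6J, marrow as flushed from femurs, blood as the mononucleated fraction of a Ficoll gradient, and the injury site as enzymatically digested at 37°C. All 3 libraries came from injured mice, and there was no uninjured library. There was 1 library per tissue and the number of mice behind each was not given, so tissue and library cannot be told apart and no difference below has a replicate check. All intervals are 95% and cover counting error only.

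Every cytosolic ribosome is built from a small subunit, which reads the mRNA, and a large subunit, which joins amino acids, and most ribosomal proteins are present in a single copy per particle. Ribosomal protein mRNAs are among the most abundant of a growing cell, and most carry a terminal oligopyrimidine (TOP) start, a C followed by a run of pyrimidines, through which mTOR signalling controls their translation as a group. Neutrophils mature in the marrow from dividing promyelocytes, which make azurophil granules, through cells that make specific granules, to segmented cells that no longer divide and are released to the blood.

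The start sites of 6 genes on which the results turn are shown because a TOP mRNA is defined by the bases at its start. Each line gives 15 bases before and 15 from the RefSeq start, 5′ to 3′ on the strand of the gene (build GRCm38.p6), with the longest pyrimidine run in the window in capitals. Rps9, Rps27 and Rpl37 were among the members retained most in mature neutrophils, and Rps2, Rpl12 and Rpl14 among those that differed most between cells.
Rps9 (chr7:3704026-3704055, + strand): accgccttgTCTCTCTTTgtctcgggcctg
Rps27 (chr3:90213634-90213663, - strand): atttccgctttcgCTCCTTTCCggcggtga
Rpl37 (chr15:5116598-5116627, + strand): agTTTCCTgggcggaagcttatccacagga
Rps2 (chr17:24720048-24720077, + strand): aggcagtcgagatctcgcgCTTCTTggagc
Rpl12 (chr2:32961697-32961726, + strand): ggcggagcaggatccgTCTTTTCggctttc
Rpl14 (chr9:120571502-120571531, + strand): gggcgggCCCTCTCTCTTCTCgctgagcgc
The longest run measured 9 bases in Rps9, 9 bases in Rps27, 6 bases in Rpl37, 6 bases in Rps2, 7 bases in Rpl12 and 14 bases in Rpl14, and the lengths in the retained and the other genes overlapped. In Rpl37 the run lay wholly before the RefSeq start. Only Rps27 and Rpl14 read C followed by at least 4 pyrimidines from that start, so the run lengths do not compare TOP starts. RefSeq start regions were at hand for 60 of the 81 members. A run of at least 6 pyrimidines (C or T, sense strand only) within 25 bases of the start was found in 43 of these 60 (71.7%), against 47.8% of the 27025 genes with a start region. A start at C followed by 4 further pyrimidines was found in 13 of 60 (21.7%), against 3.01% of all genes. The RefSeq start is an annotated position and was not measured in these cells. A member outside this count may thus still carry a TOP start.

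The libraries held 1855 (marrow), 2241 (blood) and 5629 (tendon) cells, with 49580625, 22542581 and 90621052 UMIs. After filtering and removal of predicted doublets, 1813, 2146 and 4780 cells were analyzed, and 9 barcodes of 9725 cells occurred in more than 1 library. Cells were named from marker genes only, and 106, 108 and 348 cells in turn stayed unnamed. Among classes with at least 30 cells, every marker was highest in its own class in each library, except 1 of 5 T cell markers in blood. The classes were named from these same markers, so this is no independent check of the names. Neutrophil-like cells were further divided into promyelocyte, cycling, immature and mature gates by their azurophil, cell cycle, specific granule and late markers, none of which was a ribosomal protein gene. These gates are ranges of continuous scores: of 1344 marrow neutrophil-like cells, 75 lay close to the boundary of the mature gate, 50 close to that of the promyelocyte gate and 42 at the boundary of the cycling gate.

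Ribosomal protein genes took between 2.96% and 40.4% of UMIs across the 17 combinations of class and tissue with at least 30 cells. The share was highest in blood T-like cells at 40.4% (712 cells), followed by blood B-like cells at 31.2% (369 cells). Keratinocyte-like cells of the tendon injury site reached 26.4%, marrow B-like cells 24.2% and tendon dendritic-like cells 24.1%. Fibroblast/tenocyte-like cells at 22.2%, endothelial-like cells at 22.1%, marrow monocyte/macrophage-like cells at 21.8%, blood basophil/mast-like cells at 21.7%, blood monocyte/macrophage-like cells at 21.6% and blood NK-like cells at 21.1% lay between 21.1% and 22.2%. Mural-like (17.9%), tendon monocyte/macrophage-like (16.8%) and Schwann-like cells (15.2%) were lowest outside the neutrophils. Neutrophil-like cells were below every other class, at 12.2% in marrow, 4.56% in tendon and 2.96% in blood. Schwann-like cells were uneven, since the median over the 53 cells was 8.83% and the 10th and 90th percentiles were 4.01% and 21.9%.

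**Figure D1:**
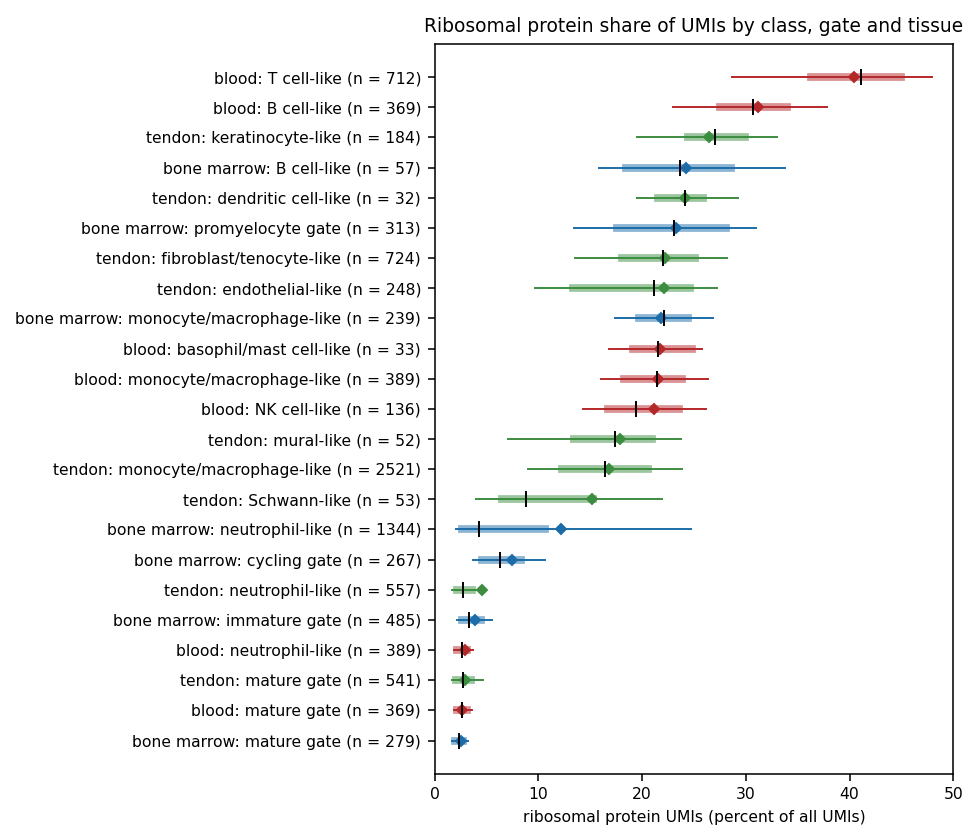
Ribosomal protein UMIs as a percent of all UMIs (x axis) for each class or neutrophil gate with at least 30 cells, colored by library. Diamonds are pooled values, black ticks medians over cells, thick bars the middle 50% of cells and thin lines the 10th to 90th percentile of cells. The mature gates of all 3 libraries sit between 2.55% and 2.92%, and the blood T-like cells at 40.4% are at the other end.

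In blood, where both classes came from 1 library, the share was 13.7-fold higher in T-like than in neutrophil-like cells, a log2 ratio of 3.77 (interval 3.76 to 3.78). Cells of the mature gate in blood ranged from 0.439% to 7.06%, and 99.6% of the 712 T-like cells were above the highest of them. At least 2-fold higher levels in T-like cells were found for 78 of 79 members tested, where 51% of all 9816 genes tested were at least 2-fold higher, and the median log2 ratio was 3.96 over the members and 1.06 over all genes. The median UMIs per cell were 8926 in T-like and 8561 in neutrophil-like cells.

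The members did not differ by one common factor between these classes. Rpl12, a protein of the stalk base, was 7066 CPM (UMIs of the gene per 1000000 UMIs of the group) in T-like and 68.5 in neutrophil-like cells, a log2 ratio of 6.69 (6.51 to 6.87). Rpl3, which helps to form the peptidyl transferase center, had a log2 ratio of 5.86 and Rpl10a, a protein of the L1 stalk, one of 5.76. At the other end, among members with at least 200 UMIs in the pair, Rps9 was 4696 and 2089 CPM, with a log2 ratio of 1.17. Rps27a, which is made as a fusion with ubiquitin, followed at 1.59 and Rps27l, a p53-induced paralog of Rps27, at 2.33. Of the 78 members with at least 200 UMIs in the pair, 58 lay within 1 log2 unit of the summed ratio. The neutrophil-like value depended on 20 of the 389 cells, which lay outside the mature gate and held 22.3% of the ribosomal protein UMIs of the class. Against the 369 mature cells alone the summed log2 ratio was 3.93, and those of Rpl12, Rpl3 and Rpl10a were 7.44, 7.14 and 7.07, while Rps9 was at 1.13 and Rps27a at 1.56.

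Among blood lymphocytes, T-like and B-like cells were closer to each other than T-like and NK-like cells. T-like against B-like cells gave a log2 ratio of 0.38 over the summed members. The median log2 ratio was 0.34 over the members and -0.20 over all genes tested. The stalk proteins Rplp0 (0.89) and Rplp1 (0.81), which recruit elongation factors, stood highest with Rpl5 (0.75), a carrier of 5S rRNA. Rps27l stood lowest at -0.11 (-0.31 to 0.09), an interval that includes no difference. NK-like cells were below T-like cells by a log2 ratio of -0.94 (21.1% against 40.4%). At least 2-fold lower levels in NK-like cells were found for 22 of 78 members, against 8.45% of all genes tested. Rps19, a small-subunit protein mutated in Diamond-Blackfan anemia, was lowest at -1.74, followed by Rpl12 at -1.70 and Rps20 at -1.53. Rps27l ran the other way, at 274 CPM in NK-like and 117 in T-like cells, a log2 ratio of 1.23 (1.01 to 1.43). Rpl10 at -0.18 and Rpl27 at -0.38 were the next highest.

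Along the marrow gates the ribosomal protein share was lower at each step. It was 23.3% in the promyelocyte gate (313 cells), 7.46% in the cycling gate (267 cells), 3.93% in the immature gate (485 cells) and 2.55% in the mature gate (279 cells). The largest step was the first, with log2 ratios of -1.64 from promyelocyte to cycling, -0.92 from cycling to immature and -0.62 from immature to mature. Cycling cells above the azurophil boundary were counted in the promyelocyte gate, so the first step does not compare cells before and after entry into the cell cycle. The promyelocyte gate was close to the marrow monocyte/macrophage-like cells (21.8%), with a log2 ratio of 0.09. The median number of ribosomal protein UMIs per cell was 9893, 2185, 706 and 276 along the gates. The median of all UMIs per cell was 44157, 36366, 21272 and 12389, and the median mitochondrial share was 2.76%, 1.02%, 0.73% and 0.60%. Depth and mitochondrial share thus moved with the gates, and their part in the result was not tested. Less RNA per cell and lower capture cannot be told apart.

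From promyelocyte to mature gate the summed members were 9.12-fold lower, a log2 ratio of -3.19 (-3.20 to -3.18). At least 2-fold lower levels were found for 77 of 79 members tested, beside 55.6% of all 10393 genes, and the median log2 ratio was -3.30 over the members and -1.32 over all genes. Between neighboring gates, 77 of 79 members were at least 2-fold lower in the cycling than in the promyelocyte gate (35.9% of all genes), 35 of 79 in the immature than in the cycling gate (30.7%) and 22 of 79 in the mature than in the immature gate (15.5%). With S100a8, S100a9 and the granule genes left out of the total the summed log2 ratio was -2.71, and relative to the median gene it was -1.87.

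Rpl3 showed the lowest ratio. It was 2522, 547, 124 and 47.9 CPM along the 4 gates, a log2 ratio of -5.72 (-5.95 to -5.50) between the first and the last. Rps2, which lies at the mRNA entry channel, was 5318, 843, 230 and 109 CPM, a log2 ratio of -5.61. Rpl10a was 2208, 554, 187 and 50.5 CPM, a log2 ratio of -5.45. All 3 were lower at every step.

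Rps9, a protein of the mRNA entry site, was the most retained of the members with at least 200 UMIs in the pair. It was 3477 CPM in the promyelocyte gate and then 1891, 1810 and 1890, so that it was lower after the first step and lay between 1810 and 1891 in the 3 later gates. Its log2 ratio from first to last gate was -0.88 (-0.92 to -0.84). Rps27, a zinc finger protein of the small subunit, was 1391, 595, 488 and 488 CPM, a log2 ratio of -1.51. Rps27a was 5711, 1856, 1500 and 1692 CPM, a log2 ratio of -1.76, and was higher in the mature than in the immature gate by a log2 ratio of 0.17 (0.13 to 0.22). Rpl37, a zinc finger protein of the large subunit, was 3622, 1065, 715 and 885 CPM, and was likewise higher in the mature than in the immature gate, by 0.31 (0.25 to 0.37). These are shares of UMIs. Median UMIs per cell were 21272 in the immature and 12389 in the mature gate. Rps27a had 15632 UMIs in the 485 immature gate cells and 5858 in the 279 mature gate cells. Rpl37 had 7453 and 3064, so both had fewer UMIs per cell in the mature gate despite a higher share.

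**Figure D2:**
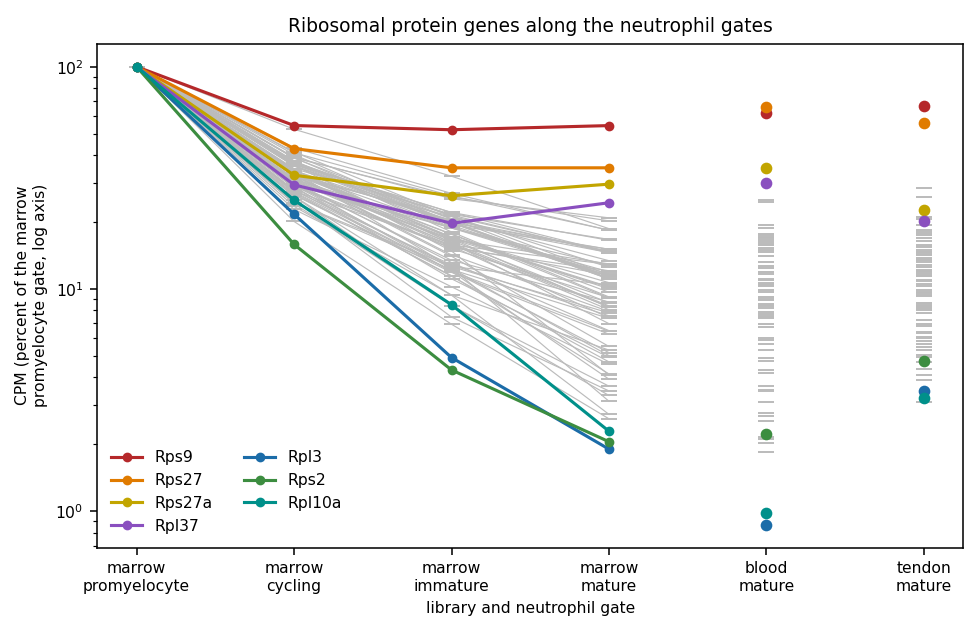
CPM of each member with at least 200 UMIs in the marrow promyelocyte and mature gates, as a percent of its level in the marrow promyelocyte gate (log axis), along the 4 marrow gates (lines) and in the mature gates of blood and tendon (points, other libraries). Rps9 lies between 1810 and 1891 CPM in the cycling, immature and mature marrow gates, and at 2143 in blood and 2318 in tendon. Rpl3 passes from 2522 to 47.9 CPM along the marrow gates. Grey lines are the other members, and Rpl3l is not drawn.

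Among the 78 members with at least 200 UMIs in the pair, these 4 genes, Rps9, Rps27, Rps27a and Rpl37, lay at least 1 log2 unit above the summed ratio. The group was set after the values were seen. They made up 6.10% of ribosomal protein UMIs in the promyelocyte gate, 7.25% in the cycling, 11.5% in the immature and 19.4% in the mature gate. Without them the log2 ratio of the summed members was -3.41 in place of -3.19. Another 18 members lay at least 1 log2 unit below the summed ratio and 56 of 78 within it. The small-subunit genes took 46.7% of ribosomal protein UMIs in the promyelocyte and 50.6% in the mature gate, and the 3 stalk genes 4.45% and 3.91%. Across 77 members the log2 ratio had a Spearman correlation of -0.15 with coding length, given as a description across genes of the same 2 groups of cells.

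**Figure D3:**
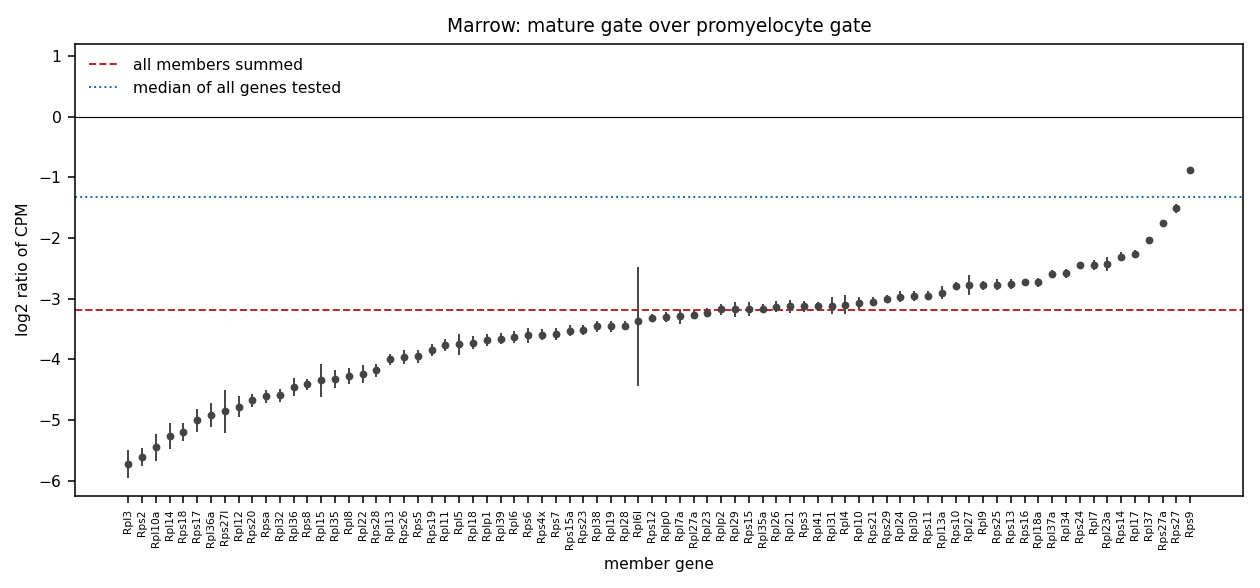
Log2 ratio of CPM in the marrow mature gate over the marrow promyelocyte gate (y axis) for the members with at least 200 UMIs in the pair, ordered by value, with 95% intervals for counting error. The dashed line is the ratio of all members summed (-3.19) and the dotted line the median of all genes tested (-1.32); Rps9, Rps27, Rps27a and Rpl37 stand above the dashed line by at least 1.

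Genes that work with the ribosomal proteins were lower in the mature gate as well. Of 20 translation factors and other TOP mRNAs, 18 were at least 2-fold lower than in the promyelocyte gate, with a median log2 ratio of -2.53; of all genes tested in this comparison 55.6% were at least 2-fold lower and the median was -1.32. Npm1, a nucleolar chaperone, was 1390 and 27.4 CPM in promyelocyte and mature gates (-5.66), and Eef1d, an exchange factor of elongation, had a log2 ratio of -4.69. Eif4a2, an RNA helicase of initiation, was instead at 0.44 and Tpt1, translationally controlled tumor protein, at -0.70. Of 25 ribosome assembly genes, 24 were at least 2-fold lower and the median was -5.26. Nolc1 and Mybbp1a, both nucleolar, had 1 UMI each in the mature gate against 1211 and 1074. Polr1a, the largest subunit of RNA polymerase I, was higher in the mature gate (40.1 against 13.002 CPM, 1.63), and Ubtf, an RNA polymerase I factor, was at -1.20. Of 76 mitochondrial ribosomal protein genes tested, 75 were at least 2-fold lower, with a median of -3.80. Mrpl35 and Mrpl11 had 1 UMI each in the mature gate, Mrpl48 was at -1.005, and Mrpl33 was slightly higher at 0.33 (0.26 to 0.39). The ratios above 0 compare shares of UMIs. Polr1a had 194 UMIs in the 313 promyelocyte gate cells and 139 in the 279 mature gate cells. Eif4a2 had 593 and 187, and Mrpl33 9034 and 2627. Polr1a, Eif4a2 and Mrpl33 thus had fewer UMIs per cell in the mature gate. Median UMIs per cell were 44157 in the promyelocyte and 12389 in the mature gate.

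Among the paralogs fixed by name, Rpl3l and Rpl39l were scarce, while Rps27l had 62347 UMIs over the 3 libraries. Rpl3l, a striated muscle paralog of Rpl3, had 287, 243 and 83 UMIs in the marrow, blood and tendon libraries. It was the only member above 0 in the comparison of mature and promyelocyte gates, with 103 and 20 UMIs, or 29.7 and 1.34 CPM, and a log2 ratio of 4.47 (3.77 to 5.24). Its end on chr17 (24727820 to 24736143, + strand) lies 498 bases before the start of Msrb1 in the annotation. Msrb1, a methionine sulfoxide reductase, was 483, 525, 874 and 1843 CPM along the marrow gates, where Rpl3l was 1.34, 0.31, 9.41 and 29.7. Msrb1 is among the late markers that define the mature gate, so its rise from the immature to the mature gate was built into the gates. Whether reads of Msrb1 entered the Rpl3l count was not tested. Rpl39l, a paralog of Rpl39 known from testis, had 4, 11 and 396 UMIs, of which 324 were in tendon fibroblast/tenocyte-like cells (12.2 CPM, against 1.01 in tendon monocyte/macrophage-like cells). Rps27l was 549 and 19.1 CPM in promyelocyte and mature gates (-4.85), against -1.51 for Rps27. Rpl10 and Rps4x had no detected paralog partner among the members, since Rpl10l had no UMI and Rps4l was not listed. Of the remaining members fixed by name, Rpsa, a small-subunit protein also known as the laminin receptor, was 5163, 1780, 765 and 212 CPM along the gates (-4.61), and Rplp2 had a log2 ratio of -3.17.

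In the mature gate the ribosomal protein share was nearly equal in the 3 libraries: 2.55% in marrow, 2.65% in blood (369 cells) and 2.92% in tendon (541 cells). The 10th and 90th percentiles of cells were 1.67% and 3.24% in marrow, 1.82% and 3.62% in blood, and 1.64% and 4.63% in tendon, so the ranges overlapped. The log2 ratio was 0.06 (0.04 to 0.07) for blood over marrow and 0.14 (0.12 to 0.15) for tendon over blood. Both turned negative, to -0.11 and -0.14, with S100a8, S100a9 and the granule genes left out of the total, so no direction is given for either. With predicted doublets kept the tendon over blood ratio was 0.52. Median UMIs per mature cell were 12389, 8350 and 3501 in marrow, blood and tendon.

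Behind this near-equal sum, single members differed between blood and tendon. The blood cells came from the mononucleated fraction of a Ficoll gradient and the tendon cells from enzymatic digestion. Preparation and tissue cannot be told apart here. Rpl3 was 21.9 CPM in blood and 87.9 in tendon, a log2 ratio of 2.003 (1.603 to 2.42). Rpl10a was 21.6 and 71.6, a log2 ratio of 1.73 (1.31 to 2.16), and Rpl12 was 40.7 and 128, a log2 ratio of 1.66 (1.35 to 1.97). These 3 were also the members with the lowest ratios of blood over marrow among those with at least 200 UMIs, at -1.23 for Rpl10a, -1.13 for Rpl3 and -0.98 for Rpl12, and the blood values are shared by both comparisons. In the other direction, Rpl27 was 155 CPM in blood and 89.2 in tendon (-0.79), Rps27a 2004 and 1288 (-0.64), and Rpl37 1083 and 729 (-0.57). In all, 7 of 78 members were at least 2-fold higher in tendon, beside 17.8% of all genes tested, and 1, Rpl3l, was at least 2-fold lower, beside 14.9%. Between blood and marrow none of 78 members was at least 2-fold higher, beside 6.31% of all genes, and 2, Rpl10a and Rpl3, were at least 2-fold lower, beside 5.18%. The shares of members called, 8.97% and 1.28% for tendon over blood and 2.56% for lower in blood than marrow, were below the shares of all genes.

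**Figure D4:**
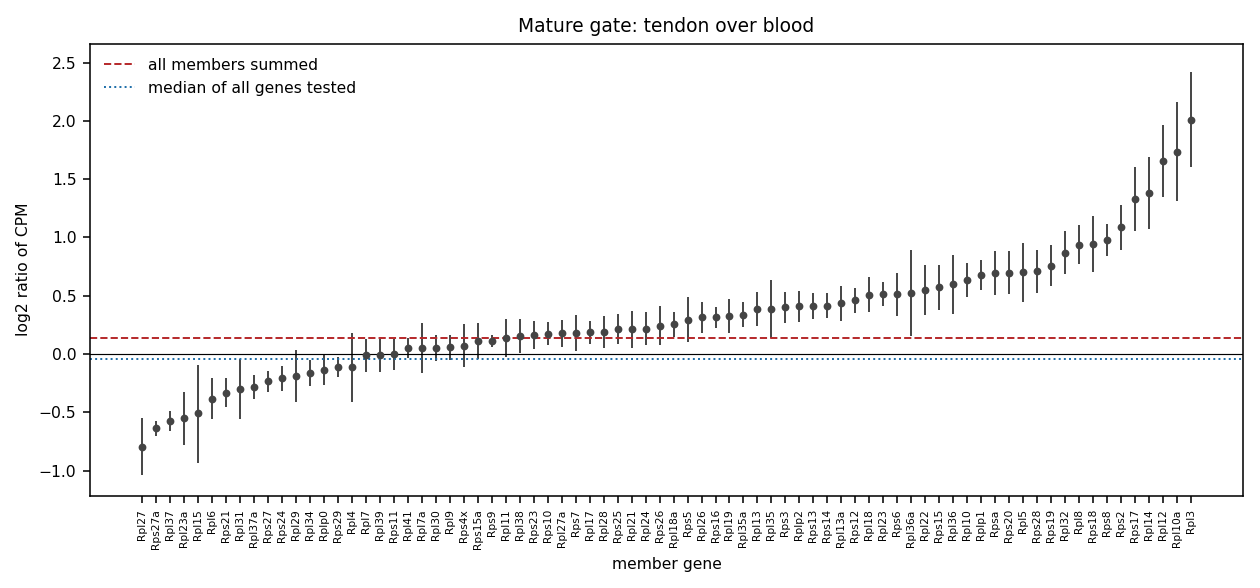
Log2 ratio of CPM in the tendon mature gate over the blood mature gate (y axis) for the members with at least 200 UMIs in the pair, ordered by value, with 95% intervals for counting error. The summed members (dashed) are at 0.14; Rpl3, Rpl10a and Rpl12 are highest at 2.003, 1.73 and 1.66, and Rpl27, Rps27a and Rpl37 lowest.

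Transcripts of other cell types were measured in the same gates. In the tendon mature gate all 7 fibroblast/tenocyte markers had a UMI and together made 124 CPM, 1.67% of their level in the whole tendon library. The 6 keratinocyte markers summed to 137 (4.36%) and the 14 monocyte/macrophage markers to 307 (7.05%). In blood the fibroblast/tenocyte markers were at 0 and the monocyte/macrophage markers at 167 CPM. The 5 Schwann markers summed to 104 CPM in blood (131% of the library level), 57.5 in marrow (187%) and 41.4 in tendon (26.3%). The keratinocyte markers were at 141% of the library level in blood and 264% in marrow, each from 1 marker. A UMI of these sets thus need not come from another cell. Choosing cells without such UMIs does not separate cells with and without carried-over RNA. Mature cells with no UMI of the markers of other cell types, not only those named here, numbered 70 in tendon and 38 in blood. Their ribosomal protein shares were 3.14% and 2.50%, a log2 ratio of 0.33. The median depth of these cells was 2892 UMIs in tendon and 8923.5 in blood, so absence of a marker UMI said less about the tendon cells. In tendon and blood, Rpl3 had 30 and 8 UMIs in these cells (log2 ratio 2.38, 1.22 to 3.72), Rpl12 40 and 11 (2.34, 1.35 to 3.45) and Rpl10a 15 and 3 (2.80, 0.98 to 5.23). Rpl3, Rpl10a and Rpl12 were 1542, 1567 and 1679 CPM in tendon monocyte/macrophage-like cells. In fibroblast/tenocyte-like cells they were 2544, 2546 and 3163. Whether RNA of such cells made up the tendon mature gate values of these 3 genes was not tested. Carried-over and own transcripts cannot be told apart here.

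At the tendon injury site the share was 16.8% in monocyte/macrophage-like and 4.56% in neutrophil-like cells, a log2 ratio of 1.88 (1.87 to 1.89). The neutrophil-like value was carried in large part by 16 of the 557 cells, which lay outside the mature gate and held 45.0% of the ribosomal protein UMIs of the class. Against the 541 mature cells alone, at 2.92%, the log2 ratio was 2.53 (2.51 to 2.54). At least 2-fold higher levels in monocyte/macrophage-like cells were found for 76 of 80 members, beside 47.8% of all genes. Among members with at least 200 UMIs in the pair, the lowest ratios were those of Rps27 (0.67), Rps9 (0.68) and Rps27a (1.21). These were also 3 of the 4 most retained such members in marrow. The highest were Rpl6l (2.97, with 7 UMIs in neutrophil-like cells), Rpl10a (2.49) and Rps28 (2.43). The pseudogene Rpl6l can share reads with Rpl6, so its value is uncertain. Against the mature cells alone Rpl10a was highest at 4.45 (1567 against 71.6 CPM), followed by Rpl3 at 4.13 and Rps18 at 4.09. Rps28, at 3.13, was no longer among the highest, while Rps27 (0.68) and Rps9 (0.75) were again lowest. The median over cells in tendon neutrophil-like cells was 2.77%, below the pooled 4.56%, and the mean over cells gave a log2 ratio of 2.35. The log2 ratio was 2.53 with classes named from clusters.

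Monocyte/macrophage-like cells carried nearly the same share in marrow and blood, 21.8% and 21.6% (log2 ratio -0.02), and 16.8% in tendon, which put tendon over blood at a log2 ratio of -0.36. Of 80 members, 4 were at least 2-fold lower in tendon than in blood, beside 12.9% of all genes. The median log2 ratio was -0.29 over the members and 0.02 over all genes tested. One of the 4, Rpl3l, was 1.26 CPM in tendon and 13.1 in blood, on 41 and 92 UMIs. Among members with at least 200 UMIs in the pair, the lowest were Rpl27 (-1.31), Rps27 (-1.16) and Rpl15 (-1.16). The highest were Rpl12 (0.11), Rpl14 (0.05) and Rps27l (0.02). These cells spread widely, with 10th and 90th percentiles of 8.96% and 23.8% in tendon and 16.0% and 26.3% in blood. The tissues also differed in preparation, and only the tendon cells were enzymatically digested, which cannot be told apart from the tissue.

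Mature neutrophils and monocyte/macrophage-like cells were held by all 3 libraries with at least 30 cells each. Of the 77 members with at least 200 UMIs in both, 10 were highest in the blood library in both: Rpl15, Rpl27, Rpl34, Rpl37, Rpl37a, Rpl39, Rps21, Rps27, Rps27a and Rps29. Another 11 were highest in marrow in both, 1 (Rpl13a) in tendon in both, and 55 in unlike libraries. The same count over all genes was not made. Whether 55 of 77 differs from other genes is not known, so these counts are a description only. The 3 with the highest ratios of blood over marrow, Rps27, Rpl27 and Rpl15, are given in full. Rps27 was 488, 913 and 776 CPM in the mature gates of marrow, blood and tendon, and 1873, 2783 and 1245 in monocyte/macrophage-like cells. Rpl27 was 91.2, 155 and 89.2 in the mature gates and 562, 893 and 359 in monocyte/macrophage-like cells. Rpl15 was 33.5, 47.5 and 33.5, and 541, 847 and 380. In B-like cells, Rps27 (1.23) and Rpl27 (0.996) were the highest members of blood over marrow. All members summed were at 0.36 there, and the median over all genes tested was -0.25. B-like cells (57 in marrow) were not divided by maturity, so stage and library cannot be told apart.

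**Figure D5:**
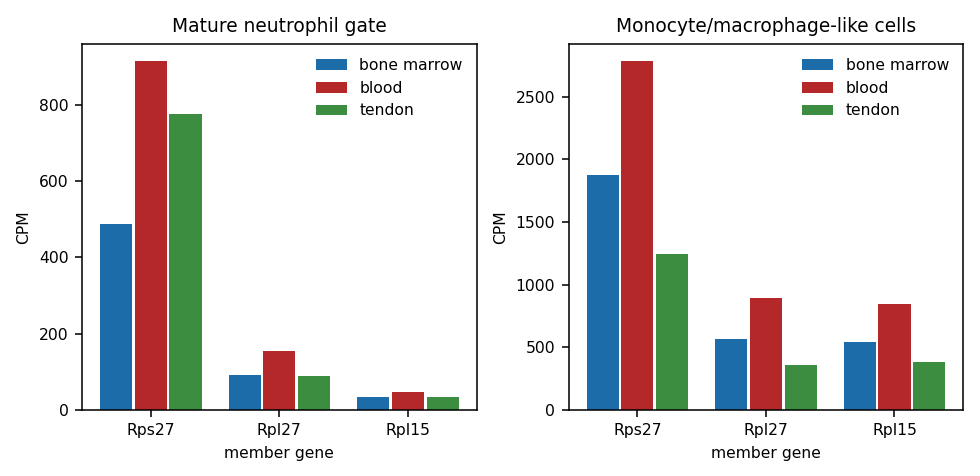
CPM (y axis, from 0) of Rps27, Rpl27 and Rpl15 in the mature neutrophil gate (left) and in monocyte/macrophage-like cells (right) of each library; bars are pooled values of 1 library, with no replicate. Blood is the highest of the 3 libraries for each gene in both classes. The genes were chosen for their high ratios of blood over marrow. Of 77 members, 55 were highest in unlike libraries, and the same count over all genes was not made.

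At the tendon injury site, fibroblast/tenocyte-like and keratinocyte-like cells were set against monocyte/macrophage-like cells. The summed log2 ratios of the members were 0.40 and 0.65. The medians were 0.47 and 0.74 over the members, and 0.30 and 0.06 over all genes tested. In fibroblast/tenocyte-like cells Rpl39l had the highest ratio, at 3.59 (324 against 33 UMIs). Rps2 was 5874 CPM in fibroblast/tenocyte-like, 7446 in keratinocyte-like and 2290 in monocyte/macrophage-like cells, log2 ratios of 1.36 and 1.70. Rpl14 was next in keratinocyte-like cells at 1.27, and Rpl4, a protein of the exit tunnel, was at 0.92 and 1.15 in the 2 classes. Rps29, a zinc finger protein of the small subunit, was lower in both, at -0.73 and -0.51.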

How the data were processed

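Unsorted cells of 3 mouse tissues were profiled as 1 droplet library each. The authors deposited unnormalized UMI counts, which Cell Ranger 5.0.1 had produced against mm10 according to the file headers and the submitters' processing notes. UMIs mark 1 transcript end each and were not scaled by length. Cells with at least 200 genes and at most 20% mitochondrial UMIs were kept (15, 57 and 651 cells failed), and predicted doublets were removed with a Scrublet-type score at 0.8% per 1000 cells (27, 38 and 198 cells). Cells were named "X-like" by marker scores, with at least 3 class markers detected and a second class score at most 0.75 of the first; 3 listed markers were not found. The promyelocyte gate needed 30 azurophil marker UMIs per 10000, the cycling gate 4 cycling markers, and the mature gate more late than specific granule marker UMIs. A cell that met both the promyelocyte and the cycling rule was placed in the promyelocyte gate. Members and lists were chosen with earlier results of these data known, and the class, gate, cluster and TOP rules were set after values were seen. UMIs were summed per group, as the cells of 1 library are not replicates, so no test was run. Shares carry Clopper-Pearson intervals and ratios exact binomial intervals at 95%. Genes with at least 20 UMIs in a pair were compared, with 2-fold as the call and 3 counts in place of 0. Members are named as the 3 highest and 3 lowest per comparison with at least 200 UMIs, the paralog pairs, the stalk genes and Rpsa, and members with no UMI; lists by their 2 highest and 2 lowest genes. The interval code was tested on simulated data. Alternatives were the cell filter, doublets, the denominator, weighting by cell, scaling, clustering, the UMI minimum and the fold. Python 3.11.15, numpy 2.4.6, scipy 1.17.1 and scanpy 1.11.5 were used.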

Additional observations from a re-analysis of the deposited data

Results flagged for a closer look

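Among monocyte/macrophage-like cells, those with at least 4 cycling markers had a lower ribosomal protein share than the others in marrow (20.7% in 101 cells against 23.2% in 138, log2 ratio -0.17) and a higher one in tendon (17.6% in 114 against 16.8% in 2407, log2 ratio 0.0698). The contrast ran in opposite directions in the 2 libraries; the difference was not tested.

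Outside the members, 16 genes named as ribosomal protein pseudogenes held 0.0165% of UMIs in marrow, 0.0223% in blood and 0.0229% in tendon. There were no control libraries, and these counts were 0.113%, 0.0891% and 0.117% of the members' UMIs.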

How the results depend on the processing

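No paired analysis was possible because each tissue had 1 library, and no library could be left out. Of 76 values under 13 alternatives, 31 stayed within the counting interval of the value reported (for counts of members, within 1.5-fold), 43 moved outside it and 2 reversed; the intervals are narrow and cover counting error only, and the cause of the changes was not tested. All values but the last are log2 ratios. For blood T-like over neutrophil-like cells (3.77), the ratio was 3.75 with no cell filter, 3.81 with at least 500 genes and at most 10% mitochondrial UMIs, 3.67 with doublets kept, 3.82 with mitochondrial genes left out of the total and also as the mean over cells, 3.19 with S100a8, S100a9 and granule genes left out, 2.71 relative to the median gene 3.18 with classes from clusters and 3.93 against the mature gate only (chosen after seeing the data). For the marrow mature over promyelocyte gate (-3.19) it was -3.22 without mitochondrial genes, -2.71 without granule genes, -3.20 as the mean over cells and with clusters, -1.87 relative to the median gene and -3.36 with other gate boundaries, which were chosen after seeing the data. For the mature gate of blood over marrow (0.06) it was 0.085 with doublets, -0.11 without granule genes, 0.14 as the mean over cells and with other gate boundaries, 0.0024 relative to the median gene and 0.12 with clusters. For tendon over blood in the mature gate (0.14) it was 0.11 with no cell filter, 0.20 with the stricter filter, 0.52 with doublets, -0.14 without granule genes, 0.16 as the mean over cells, 0.18 relative to the median gene, 0.33 in cells without markers of other cell types (also chosen after seeing the data) and 0.12 with other gate boundaries. For tendon monocyte/macrophage-like over neutrophil-like cells (1.88) it was 1.79 with no cell filter, 1.65 with doublets, 1.92 without mitochondrial genes, 1.597 without granule genes, 2.35 as the mean over cells, 0.96 relative to the median gene and 2.53 with clusters and against the mature gate only. For monocyte/macrophage-like cells of tendon over blood (-0.36) it was -0.36 with no cell filter and without granule genes, -0.35 without mitochondrial genes, -0.37 as the mean over cells and relative to the median gene, and -0.31 with clusters. The count of members at least 2-fold lower in the marrow mature gate lay between 72 and 78 throughout. The count lower in the tendon than in the blood mature gate (1) was 2 without granule genes and 3 at 1.5-fold.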

Other observations

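Genes that carry ribosomal protein sequence or a ribosomal role under other symbols were measured beside the members. Rps3a1 was 3819, 1053, 495 and 284 CPM along the marrow gates. Fau, which encodes a ubiquitin-like fusion with a small-subunit protein, was 4121, 2245, 1815 and 1939. Gnb2l1, the scaffold also known as Rack1, was 1248, 467, 241 and 114. Rpl22l1 was 975, 230, 70.4 and 14.1, and Rpl36al 1318, 311, 123 and 23.1. Fau was thus retained most of these 5 genes, which were chosen after their values were seen.

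Cells that failed the filter had ribosomal protein shares of 3.45% in marrow, 3.23% in blood and 3.45% in tendon. Across cells, the share had a Spearman correlation with the mitochondrial share of -0.38 in 724 tendon fibroblast/tenocyte-like and -0.23 in 2521 tendon monocyte/macrophage-like cells, 0.21 in 389 blood monocyte/macrophage-like cells and -0.02 in 239 of marrow; each is over cells of 1 library that share its depth.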
